A study of Drosophila melanogaster with 9 samples.

Results

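The genes described are those of cytoplasmic ribosomal proteins, chosen by symbol as names that start with RpL or RpS followed by a number or P, together with sta and sop, wherever a probe set of the array carried that symbol and no other. The rule found 41 of the 11982 genes tested, 25 named for the large and 16 for the small ribosomal subunit. The RefSeq annotation of Drosophila melanogaster lists 93 genes under the same rule, and the other 52, sta and sop among them, were not analysed here. Of the 41 genes, 14 lie on chromosome arm 3R, 10 on 2R, 9 on 2L, 5 on 3L and 3 on the X chromosome.

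The cells were sorted from larval wing discs, the epithelia that later form the adult wing, of animals of the w1118 background aged about 8 days. Every disc carried the en-gal4 driver, active in posterior cells, with p35 (a viral caspase inhibitor), a dsRNA against asp (a spindle pole gene) and RFP under its control, and an MMP1-GFP reporter. Sorting by fluorescence gave delaminating cells, with RFP and GFP, posterior cells, with RFP but no GFP, and anterior cells, with neither, each as 3 biological replicates on 3 arrays. Anterior cells thus bore the same transgenes without the driver's activity. GFP from the reporter defined the delaminating group, and no probe set named for asp or Mmp1 was analysed here, so the knockdown could not be checked. The 7 measured markers of wing disc epithelium, of a list of 8, had mean log2 signals between 10.89 and 11.40 on the 9 arrays.

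The cytoplasmic ribosome reads messenger RNA in its small subunit and joins amino acids in its large subunit. Growing discs need many ribosomes, and flies with a single working copy of many of these genes, known as Minutes, develop slowly, while their cells are removed by normal neighbours in mosaic discs. Some of the genes have a paralog used mainly in the germline, and a few genes with such names encode relatives of ribosomal proteins that act in ribosome assembly.

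Delaminating replicate 2 and anterior replicate 3 stood apart, and values without them are given where they move a result. Over all genes anterior replicate 3 had correlations of 0.889 to 0.915 with the rest, against 0.943 to 0.987 among the other 8. Markers of hemocytes, the larval blood cells, had a mean log2 signal of 9.98 on delaminating replicate 2, against 8.13 and 7.87 on delaminating replicates 1 and 3, and all 13 listed markers were highest there within the group. That mean lay between 7.13 and 8.15 in posterior and between 7.83 and 8.71 in anterior cells, and 2 of the 13, NimC4 and srp, lay below every array's lower quartile. Muscle precursor markers, 5 of 8 measured, averaged 6.47 to 7.12 in delaminating, 7.02 to 7.77 in posterior and 10.86 to 11.20 in anterior cells. Of these 5, htl lay below the lower quartile. Glia markers, 4 of 4 measured, averaged 7.84 to 7.94 in delaminating, 7.25 to 7.39 in posterior and 6.16 to 6.93 in anterior cells, and 1 of them, repo, lay below the lower quartile.

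The 41 genes fell into a bright and a dimmer group with a gap between them. On average over the 9 arrays, 29 genes had signals from 12.32 to 13.70 (log2), and the other 12 had signals of at most 10.97. All 29 belonged to the brightest 1% of genes, a class of 120 with a mean log2 signal above 12.27, so the ribosomal protein genes made up 24.2% of that class against 0.342% of all genes tested. Of the 10 brightest genes on the array, 9 were ribosomal protein genes, and of the 20 brightest, 16 were. Signals of different probe sets also depend on their probes, so these positions say where the values lay on the array's scale and not how much RNA each gene made.

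The 29 bright genes were the common forms, 18 of the large and 11 of the small subunit. RpL40, which makes a ribosomal protein fused to ubiquitin, had the highest mean. Its log2 signals were 13.69, 13.57 and 13.71 in delaminating, 13.71, 13.72 and 13.66 in posterior, and 13.72, 13.80 and 13.70 in anterior cells. The groups overlapped, and delaminating replicate 2 was the lowest array. RpL23, RpS7, RpL37A and RpL15 followed, with means from 13.56 to 13.62. RpL41, the shortest ribosomal protein, averaged 13.55 on the 9 arrays, and RpS27A, the other ubiquitin fusion, averaged 13.16.

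The 12 dimmer genes were 9 paralogs and 3 relatives with roles in assembly, a division by known role made after the values had been seen. RpL22-like, a testis-enriched paralog of RpL22, was the dimmest at 5.40, below the lower quartile of every array (6.39 to 6.53), so it was not shown to be above background. RpS28-like, RpS10a, RpL37-2 and RpL10Aa came next, with means from 6.50 to 7.19. The mean of RpS28-like, 6.50, lay within the range of the lower quartiles, so it was not shown to be above background either. RpS5b, a germline paralog of RpS5a, averaged 7.41, and RpS19b and RpS28a averaged 7.45 and 7.74. RpL34a stood higher at 10.78, as did RpL24-like at 10.93 and RpL7-like at 10.97, both named after large subunit proteins and related to yeast proteins that act in assembly of that subunit. RpLP0-like, related to yeast Mrt4, which holds the place of the stalk protein P0 during assembly, averaged 9.13.

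**Figure D1:**
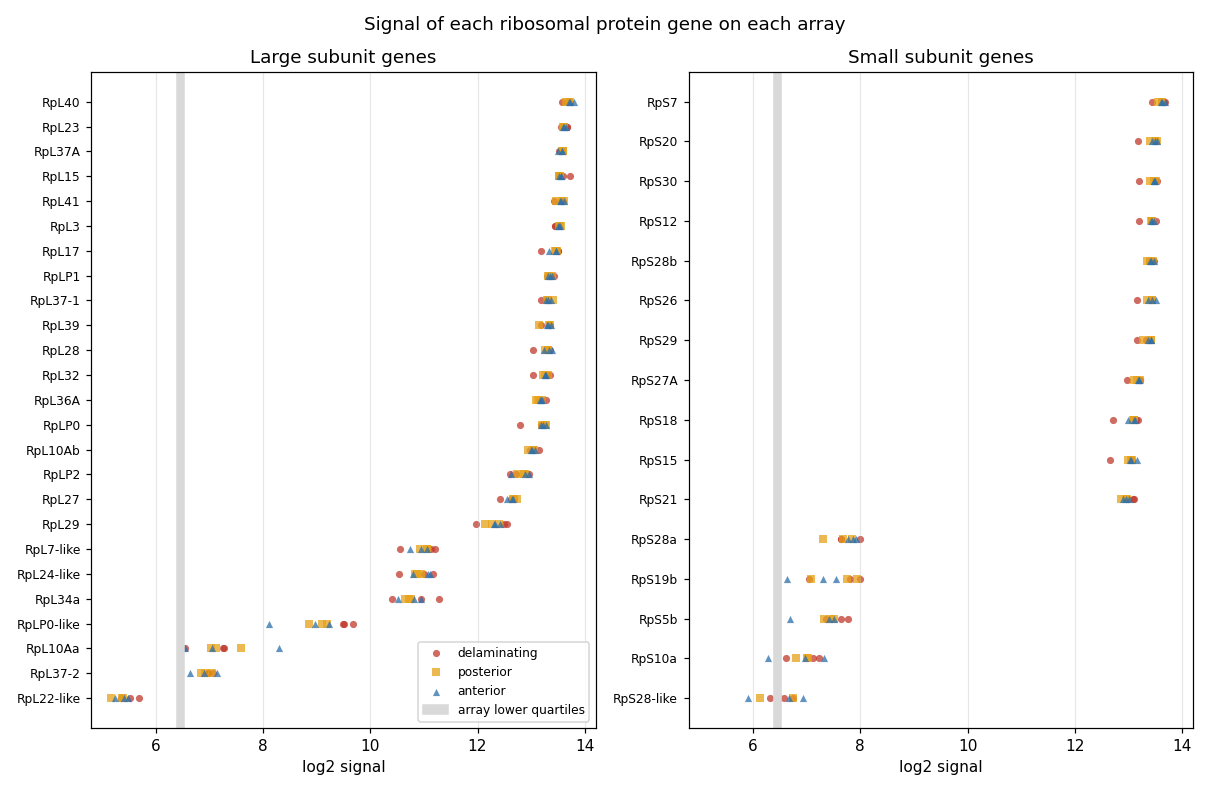
Log2 signal of each of the 41 ribosomal protein genes (rows) on each array, with red circles for delaminating, orange squares for posterior and blue triangles for anterior cells, large subunit on the left and small subunit on the right. The 29 bright genes lie between 11.97 and 13.80 on every array, and the grey band marks the lower quartiles of the arrays, 6.39 to 6.53.

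The first comparison set delaminating cells against posterior cells, where the driver was active but the reporter signal was lacking. At an adjusted p under 0.05 limma called 0 of the 41 genes, 0 passed an unadjusted p under 0.05, and 0.801% of all genes were called. Their median log2 difference was -0.01, beside -0.0031 over all genes, with 19 genes above 0 and 22 below. Among the 29 bright genes the differences ran from -0.18 to 0.13, and their 95% intervals lay between -0.55 and 0.49. These intervals are those of each gene's brightest probe set, near the highest signals of the arrays. The fit shares spread over all genes, which gave the 29 a median standard error of 0.15. With an intensity trend and robust variances it was 0.07, and 0 of the 41 genes were called.

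The lowest and the highest difference both belonged to dimmer genes. RpL10Aa had 6.55, 7.27 and 7.25 in delaminating and 7.12, 7.58 and 7.03 in posterior cells, a difference of -0.22 with a 95% interval from -1.13 to 0.69 (limma adjusted p = 0.966). Its groups overlapped, and without delaminating replicate 2 the difference was -0.34. RpLP0-like had 9.51, 9.50 and 9.68 in delaminating and 8.85, 9.18 and 9.09 in posterior cells. Every delaminating array lay above every posterior array, and the difference of 0.52 had an interval from -0.07 to 1.11 (limma adjusted p = 0.576). RpL22-like, RpL34a, RpS5b and RpS28a followed with differences from 0.15 to 0.21, and in each of these the groups overlapped. Without delaminating replicate 2 these 4 differences lay between 0.21 and 0.40, the highest in RpL34a.

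Among bright genes RpLP0, the base of the stalk that recruits elongation factors, had the lowest difference. It stood at 13.19, 12.79 and 13.20 in delaminating and 13.25, 13.27 and 13.19 in posterior cells. Delaminating replicate 2 was the lowest of the 9 arrays, and the difference of -0.18 had an interval from -0.55 to 0.18 (limma adjusted p = 0.837). Without that array it was -0.05. The other stalk genes, RpLP1 and RpLP2, differed by 0.01 and -0.06. RpS15, RpL27 and RpS20 differed by -0.12, -0.12 and -0.09. In each of these delaminating replicate 2 was the lowest of the 9 arrays, at 12.65, 12.42 and 13.18. Delaminating replicates 1 and 3 had 13.06 and 13.05 in RpS15, 12.69 and 12.63 in RpL27, and 13.49 and 13.51 in RpS20. Posterior arrays ran from 12.99 to 13.06, from 12.67 to 12.73 and from 13.40 to 13.54.

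RpS21, a small subunit gene, was the highest of the bright genes at a difference of 0.13. It had 13.08, 12.98 and 13.11 in delaminating against 12.97, 12.87 and 12.95 in posterior cells. The groups did not overlap, but the interval of -0.19 to 0.45 held 0 (limma adjusted p = 0.895). The fit's standard error of 0.14 exceeded the gene's own SD within groups, 0.059, because the fit shares spread over all genes. RpL3, which lines the peptidyl transferase centre, had 13.51, 13.45 and 13.44 in delaminating against 13.54, 13.56 and 13.53 in posterior cells, again without overlap and with a difference of -0.08 (limma adjusted p = 0.961). RpL37A did not overlap either, at -0.04. With RpLP0-like these were the 4 genes of 41 whose groups were apart, against 22.3% of all genes.

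**Figure D2:**
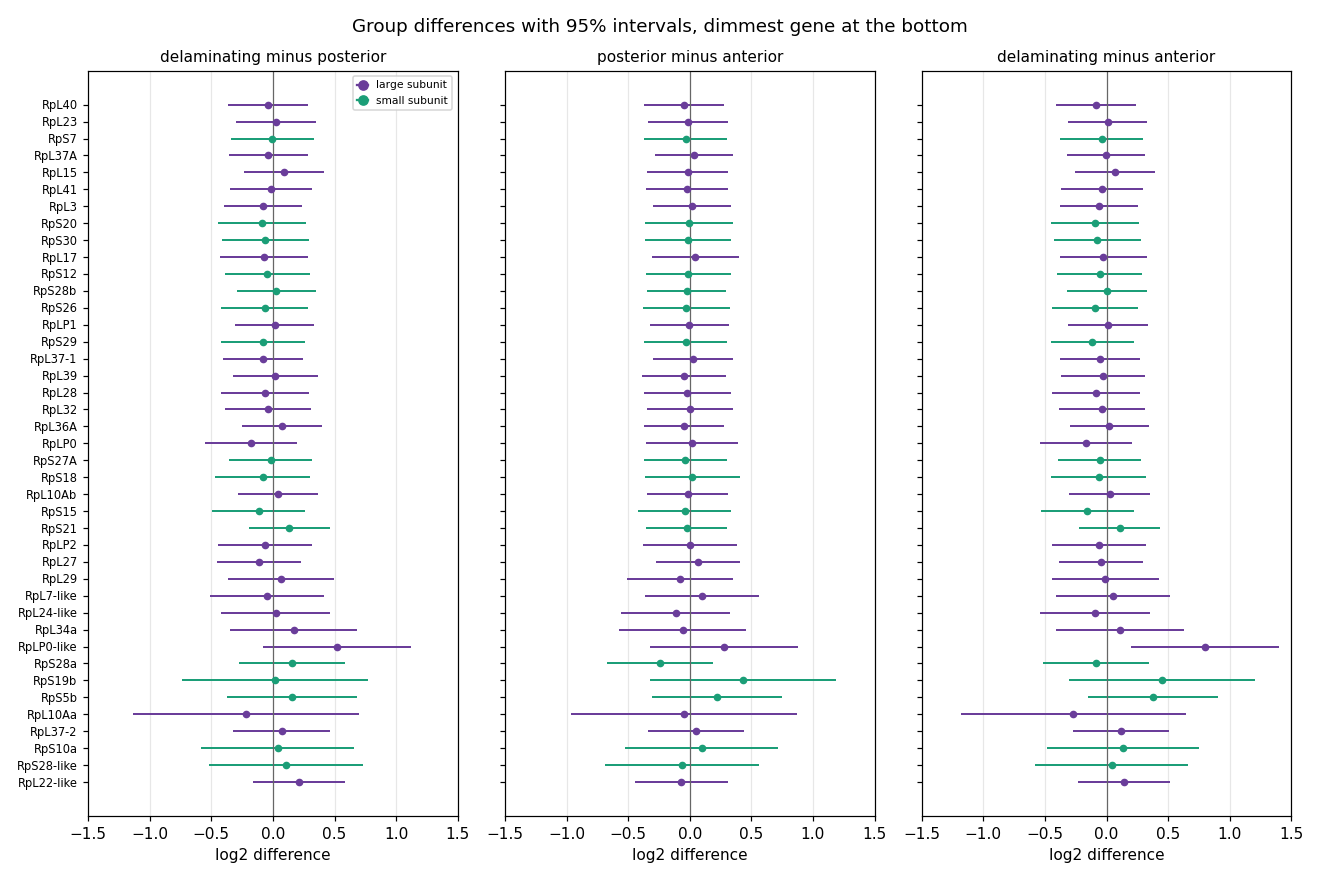
Log2 difference of group means for each of the 41 genes (rows, brightest at the top), with 95% intervals from limma, for delaminating minus posterior, posterior minus anterior and delaminating minus anterior cells. The intervals of the bright genes lie between -0.55 and 0.49 in all 3 panels, and the interval of RpLP0-like in the third panel, 0.20 to 1.39, is the only one that leaves out 0.

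Posterior and anterior cells differ in the transgene products, in compartment and in cell types, which cannot be told apart here. Among the 41 genes limma called 0, with 0 past an unadjusted p under 0.05, and it called 0.576% of all genes. The median difference was -0.02, beside 0.09 over all genes, with 15 genes above 0 and 26 below. In the 29 bright genes differences ran from -0.08 for RpL29 to 0.07 for RpL27, with 95% intervals between -0.50 and 0.40. For 0 of the 41 genes were the groups apart, against 18.4% of all genes.

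The outer differences in posterior against anterior cells again belonged to dimmer genes. RpS19b, a germline paralog of RpS19a, had 7.94, 7.09 and 7.75 in posterior and 7.55, 7.30 and 6.63 in anterior cells. The groups overlapped, and the difference was 0.43 with an interval from -0.31 to 1.18 (limma adjusted p = 0.606). RpLP0-like differed by 0.28, RpS5b by 0.22, RpL7-like by 0.10 and RpS10a by 0.10. RpS28a differed by -0.24, RpL24-like by -0.12, RpL22-like by -0.07 and RpS28-like by -0.06. In RpLP0-like, RpS5b, RpS19b and RpS10a the lowest of all 9 arrays was anterior replicate 3. Without that array the differences were -0.05 for RpLP0-like, -0.04 for RpS5b, -0.19 for RpS10a and 0.17 for RpS19b, and that of RpL7-like was 0.01. RpL10Aa, whose highest array was anterior replicate 3, differed by -0.05 with all arrays and by 0.45 without it. Without anterior replicate 3 RpL24-like was at -0.22, and RpS28-like, whose highest array it also was, changed sign.

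Delaminating against anterior cells shared an array group with each of the comparisons above. Here limma called 0 of the 41 genes, 1 passed an unadjusted p under 0.05, and 3.82% of all genes were called. The median difference was -0.04, beside 0.05 over all genes, with 16 genes above 0 and 25 below. The gene past the unadjusted threshold was RpLP0-like, with 9.51, 9.50 and 9.68 in delaminating against 8.96, 9.23 and 8.11 in anterior cells. Its difference was 0.80 (interval 0.20 to 1.39, unadjusted p = 0.0135, limma adjusted p = 0.157), and it was the 1 gene of 41 whose groups were apart, against 21.2% of all genes. Without anterior replicate 3 that difference was 0.47 (limma adjusted p = 0.164).

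RpS19b and RpS5b followed, at 0.45 and 0.37, with RpL22-like at 0.14 and RpS10a at 0.13, and the groups overlapped in all 4. Without anterior replicate 3 RpS19b was at 0.19, RpS5b at 0.12, RpL22-like at 0.07 and RpS10a at -0.16. Without delaminating replicate 2 they were at 0.74, 0.49, 0.22 and 0.32. The lowest were RpL10Aa at -0.27, RpLP0 at -0.17, RpS15 at -0.16, RpS29 at -0.12 and RpS20 at -0.09. RpL10Aa turned to 0.23 without anterior replicate 3, and without delaminating replicate 2 the other 4 lay between -0.05 and 0.01. RpS15, a small subunit gene, had 13.06, 12.65 and 13.05 in delaminating against 13.05, 13.15 and 13.03 in anterior cells. Delaminating replicates 1 and 3 lay within the anterior range, and replicate 2 lay below it.

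That array was the lowest of the 9 for 20 of the 29 bright genes, 11 of the large and 9 of the small subunit. It was lowest for 13.6% of all genes and for 25.3% of the 91 other genes of the brightest class, against 69.0% of these 29. Their mean log2 signal was 13.30, 13.12 and 13.32 on delaminating replicates 1 to 3, against 13.31, 13.29 and 13.24 in posterior and 13.30, 13.31 and 13.26 in anterior cells. The shortfall of delaminating replicate 2 was thus larger than the whole spread of the other 8 arrays, which ran from 13.24 to 13.32. Hemocyte markers were highest on the same array, and their part in the shortfall was not tested. In sorted populations fewer cells of a type and less RNA per cell cannot be told apart.

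The shortfall differed between genes. RpL29 had 11.97 on delaminating replicate 2, against 12.50 and 12.55 on replicates 1 and 3, and its range over the 9 arrays, 0.58, was the widest of the bright genes. RpS18 had 12.71 there, against 13.14 and 13.19. RpS12, a small subunit gene needed in flies for the removal of Minute cells by their neighbours, had 13.19 against 13.45 and 13.52. In contrast RpL15, RpL10Ab and RpS28b had their highest value of all 9 arrays on delaminating replicate 2. RpL15 had 13.72 there, against 13.60 and 13.52 on delaminating replicates 1 and 3.

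**Figure D3:**
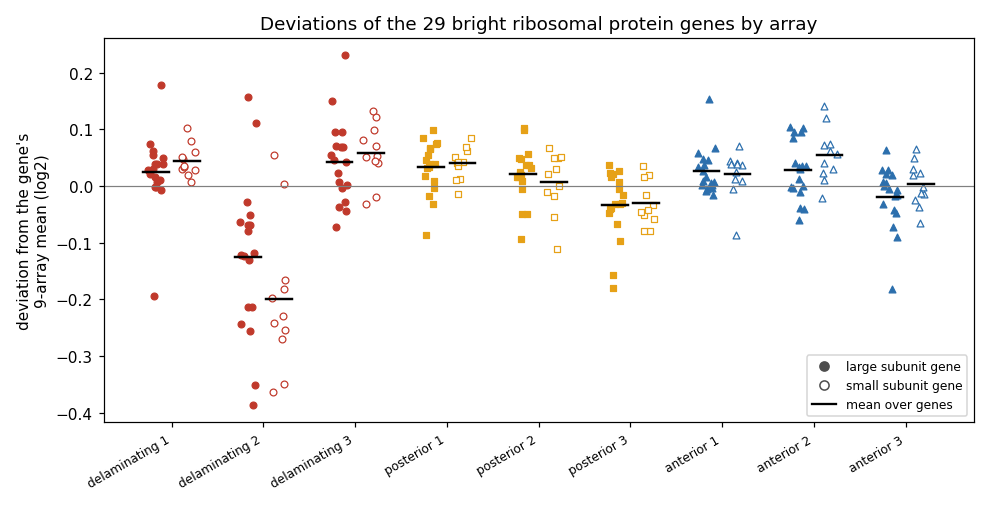
Deviation of each of the 29 bright genes from its own mean over the 9 arrays (log2), by array, with filled symbols for large and open symbols for small subunit genes and black bars for their means. Delaminating replicate 2 lies lowest, with a mean deviation of -0.15 over the 29 genes, while the other arrays lie between -0.03 and 0.05.

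Without delaminating replicate 2 the direction of the small median shift turned. In delaminating against posterior cells 21 of the 29 bright genes were then above 0, with a median of 0.04, beside 9 of 29 and a median of -0.04 with all arrays. Against anterior cells 19 of 29 were above 0, with a median of 0.02, beside 7 of 29 and -0.05. Without both arrays that stood apart the medians were 0.04 and 0.02, and in posterior against anterior cells -0.02. In each of these 3 settings limma called 0 of the 41 genes in every comparison.

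The bright genes tracked each other mainly through that array. The correlation of a bright gene with the mean of the other 28 over the 9 arrays had a median of 0.84 and was above 0.8 for 17 genes. With delaminating replicate 2 left out the median over 8 arrays was 0.52, and 6 genes were above 0.8, among them RpS20, RpS30, RpL28 and RpL32. RpL15, RpL10Ab and RpS28b were the 3 with a negative correlation over the 9 arrays. All of these values share the arrays and their normalization.

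Large and small subunit genes kept nearly the same distance on 8 arrays, and delaminating replicate 2 lay outside their range. Over the bright genes the mean of the 18 large subunit genes minus that of the 11 small subunit genes was -0.07, 0.03 and -0.07 in delaminating, -0.06, -0.04 and -0.05 in posterior, and -0.04, -0.08 and -0.07 in anterior cells. The value of delaminating replicate 2 was the 1 above 0. By group the distance averaged -0.04 ± 0.05 in delaminating, -0.05 ± 0.01 in posterior and -0.06 ± 0.02 in anterior cells (SD, n = 3 arrays each), so the groups differed by less than the spread of the delaminating arrays. Over all 41 genes, where the dimmer paralogs weigh in, it was 0.60 ± 0.06, 0.59 ± 0.07 and 0.60 ± 0.05 in the same order of groups. The mean signal of all 41 genes was 11.77 ± 0.14 in delaminating, 11.76 ± 0.03 in posterior and 11.76 ± 0.06 in anterior cells.

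By subunit, median differences in delaminating against posterior cells were -0.04 for the 18 bright large and -0.06 for the 11 bright small subunit genes. Without delaminating replicate 2 they were 0.03 and 0.04, with 11 of 18 and 10 of 11 genes above 0. In posterior against anterior cells they were -0.0082 and -0.03, with 8 of 18 and 1 of 11 above 0.

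The bright genes lay close to the highest gene signal of each array. The highest gene signal on an array was 13.66 to 13.93, and the mean of the 29 bright genes lay 0.40 to 0.49 below it on 8 arrays and 0.81 below it on delaminating replicate 2. On every posterior and anterior array that highest signal was RpL40's own. There the distance was to 1 of the 29 and not to a ceiling of the scale. Replicates of the bright genes differed little, with a median pooled SD within groups of 0.085, against 0.107 for the other 91 genes of the brightest class, 0.288 for the 12 dimmer ribosomal protein genes and 0.291 over all genes. Without delaminating replicate 2 the median SD was 0.046 for the bright genes and 0.077 for those 91. With all arrays RpL3 had the smallest SD of the 41, at 0.026, followed by RpL37A at 0.031, RpL23 at 0.044 and RpS28b at 0.048, and RpL10Aa had the largest at 0.60, followed by RpS19b at 0.48, RpS28-like at 0.37 and RpS10a at 0.37. No saturation flags were in the values used, so whether signals were saturated was not tested.

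**Figure D4:**
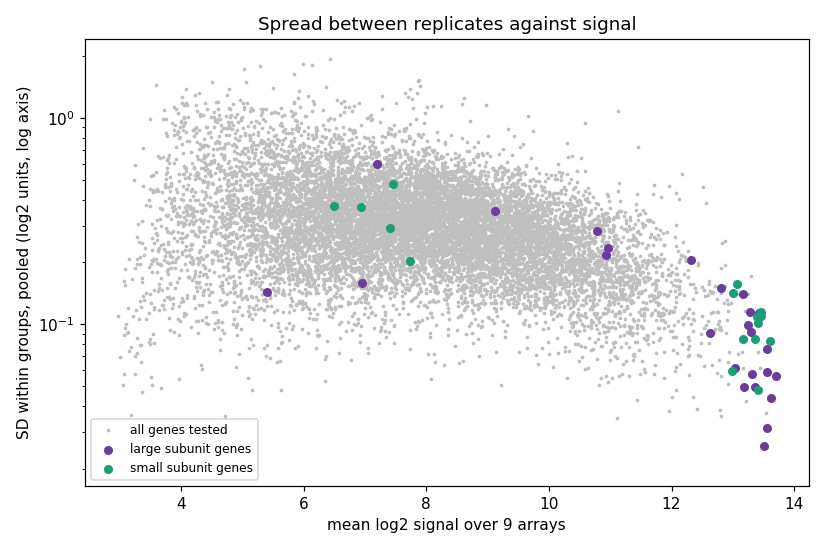
SD between replicates within groups, pooled over the 3 groups (log axis), against mean log2 signal over the 9 arrays, for all 11982 genes (grey), large subunit (purple) and small subunit (green) ribosomal protein genes. The bright ribosomal protein genes lie at the right edge with SDs from 0.026 to 0.20.

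For 4 genes the array held more than 1 probe set, and the dimmer ones moved more than the brightest. The brightest probe set of RpS7 ranged over 0.24 log2 units on the 9 arrays, while its other probe set ranged over 3.35. That second set had 10.14, 8.63 and 11.19 in delaminating, 10.85, 10.97 and 10.28 in posterior, and 11.11, 11.99 and 11.42 in anterior cells. Posterior arrays all lay below anterior arrays, and delaminating replicate 3 lay within the anterior range. The difference of delaminating against anterior cells was -1.52 on this set (interval -2.72 to -0.31, limma adjusted p = 0.179 over all probe sets), against -0.04 on the brightest set. Without delaminating replicate 2 it was -0.84 (interval -1.71 to 0.03, limma adjusted p = 0.356). For delaminating against posterior cells the second set gave -0.71 (interval -1.92 to 0.49, limma adjusted p = 0.763), and -0.04 without that array. For posterior against anterior cells it gave -0.80 (interval -2.01 to 0.40, limma adjusted p = 0.572), and -0.85 without anterior replicate 3. Leaving out delaminating replicate 2, which is in neither group, changed the interval to -1.58 to -0.03 (limma unadjusted p = 0.0445, adjusted p = 0.455).

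RpL3 gave a similar picture at smaller size. Its 3 probe sets, with means of 13.51, 12.50 and 10.30, ranged over 0.12, 0.56 and 1.11. The dimmest RpL3 set had 10.40, 9.90 and 10.32 in delaminating, 10.47, 10.68 and 10.54 in posterior, and 10.40, 10.45 and 9.57 in anterior cells, with the lowest value on anterior replicate 3. Posterior arrays all lay above anterior arrays there, opposite to the second set of RpS7, with a difference of 0.42 that was 0.14 without anterior replicate 3. The dimmest sets of RpS29 and RpS30 averaged 6.50 and 7.02, far below the 13.35 and 13.45 of their brightest sets. When every probe set with 1 symbol was tested, limma called 0 of the 47 probe sets of these genes in each comparison. In delaminating against posterior cells 0 of them passed an unadjusted p under 0.05, and 0.725% of all 13647 probe sets were called. The corresponding values were 0 and 0.711% for posterior against anterior cells, and 2 and 4.11% for delaminating against anterior cells.

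**Figure D5:**
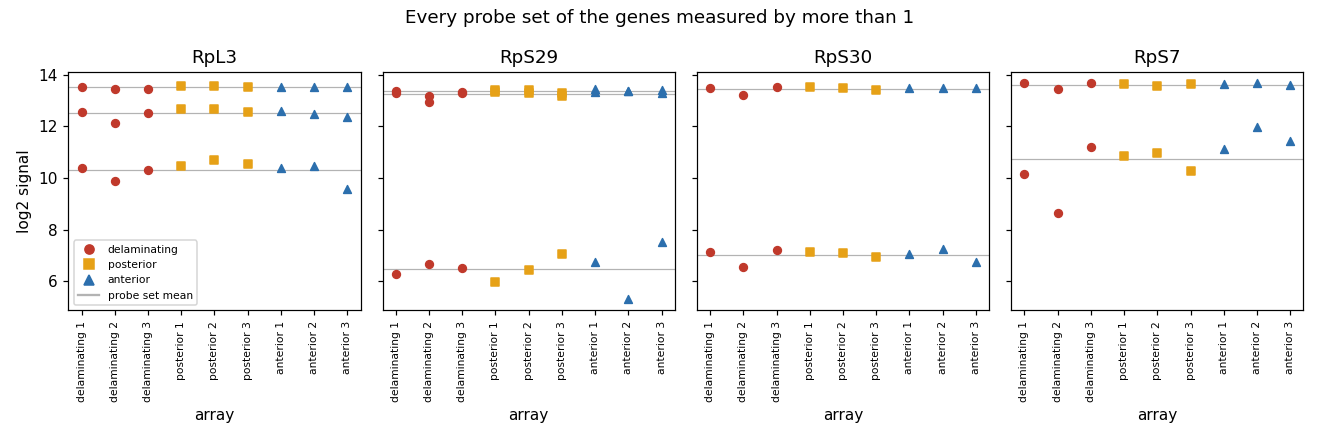
Log2 signal of every probe set of RpL3, RpS29, RpS30 and RpS7 by array, with red circles for delaminating, orange squares for posterior and blue triangles for anterior cells and a grey line at each probe set's mean. The second probe set of RpS7 spreads over 3.35 log2 units, from 8.63 to 11.99, and its brightest over 0.24.

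Some probe sets may detect several transcripts. Of the 29 bright genes, 14 had a probe set with the suffix s, by which the array's maker marks sets whose probes can match several transcripts, and 3 the suffix a. Of the 12 dimmer genes, RpL34a had the suffix a and 0 had the suffix s. RpL28, RpL32, RpS12 and RpS30 are among the 14, so their signals could include related sequences.

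Mitochondrial ribosomal protein genes, whose products build the separate ribosome of mitochondria, are set beside them for scale. The 69 measured had a median signal of 8.93 and a median pooled SD of 0.337. limma called 0 of 69 in each comparison, with 1, 1 and 9 past an unadjusted p under 0.05. Over all genes 9.98%, 9.60% and 16.6% passed that threshold, against 1.45%, 1.45% and 13.0% of the 69. Their median difference was 0.02 for delaminating against posterior cells, and 0.20 without delaminating replicate 2, when 57 of 69 were above 0. It was 0.23 for posterior and 0.23 for delaminating cells when each was set against anterior cells, and 0.01 for both without anterior replicate 3. For delaminating against anterior cells it was 0.44 without delaminating replicate 2 and 0.20, with 54 of 69 above 0, without both arrays. The difference between the gene families was not tested.

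Genes that act with the ribosome were counted from lists of translation and ribosome assembly. In delaminating against posterior cells limma called 0 genes in each of 7 lists. These were 29 measured genes of translation initiation, 6 of elongation and termination, 32 of ribosome assembly, 11 of ribosome-associated proteins, 15 of growth control, 9 of ribosomal and translational stress and 6 promoter factors. At an unadjusted p under 0.05 the lists held 2, 1, 1, 0, 1, 1 and 1 genes, against 9.98% of all genes. S6k, the kinase of ribosomal protein S6, had the highest of the differences named, at 0.87 (9.96 ± 0.34 in delaminating and 9.08 ± 0.10 in posterior cells, SD, n = 3, limma adjusted p = 0.251). eIF4G2, an initiation factor of the eIF4G family, differed by -0.48 and eIF3j by 0.51 (limma adjusted p = 0.245 and 0.401). In S6k (9.83, 10.35 and 9.70) and eIF3j (10.37, 10.97 and 10.40) delaminating replicate 2 was the highest delaminating array. Without it the genes above 0 went from 18 to 24 of 32 in assembly and from 5 to 8 of 11 associated proteins. They went from 6 to 3 of 15 in growth control, from 4 to 3 of 6 in elongation and from 7 to 6 of 9 in stress. Over all genes the share above 0 went from 49.5% to 50.9%.

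In both comparisons with anterior cells 1 gene of elongation was called. eEF1alpha2, a paralog of the factor that brings charged tRNA to the ribosome, had a difference of -3.24 in posterior against anterior cells (9.11 ± 0.21 and 12.35 ± 0.21, SD, n = 3, limma adjusted p = 8.78e-05). In delaminating against anterior cells it was 13.7-fold lower (8.58 ± 0.29 and 12.35 ± 0.21, SD, n = 3, limma adjusted p = 2.49e-05). Muscle precursor markers were lower in the same groups, and their part in this difference was not tested. Without either array or both the gene stayed called in both comparisons, with log2 differences from -3.32 to -3.24 and from -3.85 to -3.68. In posterior against anterior cells limma called 0 genes in the other 6 lists, with 0 of initiation, 4 of assembly, 1 of the associated proteins, 0 of growth control, 3 of stress and 1 promoter factor past an unadjusted p under 0.05, a threshold passed by 9.60% of all genes. Without anterior replicate 3 these counts were 0, 1, 0, 0, 2 and 0, against 8.12% of all genes.

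Delaminating against anterior cells gave 3 further called genes, each higher, where 3.82% of all genes were called. Each of the 3 calls was lost without 1 of the arrays that stood apart. S6k rose 2.53-fold (9.96 ± 0.34 and 8.62 ± 0.51, SD, n = 3, limma adjusted p = 0.0234), and its limma adjusted p was 0.0781 without delaminating replicate 2. Rrp40, a subunit of the exosome that trims ribosomal RNA precursors, rose 1.88-fold (limma adjusted p = 0.0321), and its limma adjusted p was 0.0911 without delaminating replicate 2. Gadd45, a stress-induced gene, rose 1.91-fold (limma adjusted p = 0.0445), and its limma adjusted p was 0.0598 without anterior replicate 3. Without both arrays limma called 1 of the 15 growth control genes and 2 of the 9 stress genes, the lists of S6k and Gadd45. It then called 0 of the 32 assembly genes, the list of Rrp40, against 5.18% of all genes. Glia markers, among which repo lay below the lower quartile, were higher in delaminating than in anterior cells. Their part in the differences of S6k, Rrp40 and Gadd45 was not tested. The ribosome assembly list had a median difference of 0.32 with 28 of 32 genes above 0, and 9 past an unadjusted p under 0.05, against 56.2% and 16.6% of all genes. Without anterior replicate 3 the median was 0.10, with 22 of 32 above 0 and 4 past that p, against 50.1% and 17.7% of all genes. Without both arrays it was 0.17, with 24 of 32 above 0 and 6 past that p, against 51.4% and 18.9% of all genes. Initiation, associated proteins and promoter factors had 0 called and 5, 2 and 0 genes past an unadjusted p under 0.05. The stress list had a median of 0.63, with 9 of 9 genes above 0 and 3 (33.3%) past that p. Without delaminating replicate 2, anterior replicate 3 or both, 9 of 9 stayed above 0, with medians of 0.36, 0.44 and 0.41. Growth control had 13 of 15 genes above 0 with all arrays, and 9, 7 and 1 of 15 in the same 3 settings.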

How the data were processed

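RNA of 9 samples was amplified as cDNA and hybridised to Affymetrix arrays, per the labels' protocols. The deposited values were log2 signals that the authors made with RMA, per the submitters' processing notes, and its version is not given in the sources used here. RMA as commonly run includes quantile normalization across arrays, which gives arrays a common distribution of probe intensities, so a change shared by all RNA would not show. Counts and depth do not apply, and precision was limited by the number of arrays.

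Of 18952 probe sets, 183 controls were left out, 13647 carried 1 gene symbol, 402 several and 4720 none, and those with several or none are not used here. Where a gene had several probe sets (1094 genes), its brightest by mean signal stood for it. Symbols and chromosome arms were updated from RefSeq assembly GCF_000001215.4 for 11893 of 11982 genes.

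Tests used limma 3.58.1 (R 4.3.3), with a mean per group over all 9 arrays, 2-sided moderated tests and Benjamini-Hochberg adjustment over all genes. Intervals are 95% intervals of the moderated fit. Members, lists and tests were chosen with earlier results of these data known. Genes were named as the 5 highest and 5 lowest differences of a comparison, the 5 brightest and 5 dimmest, the 4 largest and 4 smallest SDs, the stalk genes, the ubiquitin fusions RpL40 and RpS27A, and genes with a paralog or special role. RpL28, RpL32, RpS18, RpS21 and RpS30 were chosen after their values were seen. Of other lists, up to 4 called genes, or up to 2 with the smallest p, could be named.

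On simulated data of 11982 genes, limma recovered 95% of 100 planted log2 differences of 2 and 16% of those of 1 for delaminating against posterior cells. It recovered 98% and 20% for posterior against anterior cells, and 98% and 0% for delaminating against anterior cells. Planted differences of 0.5 were recovered for 0% in each. The simulations shared gene means, spreads and group sizes, so these shares differ by random draw and do not rank the comparisons. In the data Rrp40, at 0.91, and Gadd45, at 0.94, were called for delaminating against anterior cells. Alternatives were a replicate block, a filter on dim genes, other scalings, averaging all probe sets of a gene, other variance models, array weights, arrays left out, and, added after seeing the data, every probe set tested, lists and probe sets without the arrays that stood apart, and subunits over bright genes. Figures were drawn with matplotlib 3.10.9.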

Additional observations from a re-analysis of the deposited data

How the results depend on the processing

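The count of 0 ribosomal protein genes called by limma held in all 3 comparisons, over every alternative that tested genes or every probe set on all arrays. There at most 2 passed an unadjusted p under 0.05 for delaminating against posterior cells. At most 0 did for posterior against anterior cells and 2 for delaminating against anterior cells. Among probe sets tested without delaminating replicate 2, the second set of RpS7 passed it for posterior against anterior cells (limma unadjusted p = 0.0445). RpLP0-like stayed above 0 in delaminating against posterior cells, from 0.43 to 0.59, with its lowest limma adjusted p, 0.0604, under array weights. In posterior against anterior cells it turned to -0.12 under array weights, and in delaminating against anterior cells it was 0.41 there. Labels share replicate numbers, and same-numbered arrays had correlations of deviations from -0.12 to 0.18. Arrays of different numbers were not set beside them, so these values cannot settle whether the numbers mark pairs. The main fit did not take the numbers as pairs. With the replicate block 0 genes were called and the medians stayed at -0.01, -0.02 and -0.04 in the same order of comparisons.

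Centring each array on its median moved the median of all genes from 0.09 to -0.02 in posterior against anterior cells, and the medians of the 41 genes to -0.13 there and -0.13 in delaminating against anterior cells. With members above the 99th percentile left out, the medians were 0.086 in delaminating against posterior and 0.11 in delaminating against anterior cells. Leaving out single arrays gave medians from -0.055 to 0.053, -0.025 to 0.015 and -0.073 to 0.029 in the 3 comparisons, so the directions of these medians were not stable. The mean signal of all 41 genes was 11.72 in posterior and 11.82 in anterior cells after centring. It was 11.55, 11.56 and 11.56 in delaminating, posterior and anterior cells when all probe sets of a gene were averaged, and 8.20, 8.10 and 8.05 without bright genes. The large minus small distance was 0.9996, 0.98 and 0.96 when all probe sets of a gene were averaged, 1.54, 1.53 and 1.6002 without bright genes, and -0.036, -0.048 and -0.064 over bright genes, the last chosen after seeing the data, since the genes averaged differ. Signs of single uncalled genes changed in 68, 87 and 80 of 737 values per comparison.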
